A study of Mus musculus with 6 samples.

Results

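The DnaJ genes, which encode the J-domain co-chaperones of Hsp70, were taken as every gene on the array whose symbol is Dnaja, Dnajb or Dnajc followed by a number. They are 46 of 25206 probe sets, 4 of class A, 13 of class B and 29 of class C, with 1 probe set per gene, and 1 of the 46, Dnajc19-ps, is a pseudogene. Transcripts were measured on 6 single-colour Affymetrix arrays of mouse bone marrow-derived macrophages, 3 from cells that received JG-98 (0.3 micromole, 16 hours) and 3 from cells labelled as receiving no treatment. JG-98 is an allosteric inhibitor of Hsp70, and the comparison asks how blocking Hsp70 alters the transcripts of its J-domain partners. The dose is labelled as an amount with no volume, and the labels name no vehicle, mouse strain or age. Whether the replicates were separate cultures or animals is not labelled, and p-values therefore reflect a spread that may be technical.

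J proteins are the partners that give Hsp70 its clients and its place in the cell. The J domain, through its His-Pro-Asp motif, makes Hsp70 hydrolyse ATP and close on a bound polypeptide, while the rest of the protein chooses the client or anchors the pair to a membrane, a ribosome or a vesicle. Class A members resemble bacterial DnaJ with its glycine-rich and zinc-binding regions, class B members lack the zinc-binding region, and class C members share little more than the J domain. In many cells some members, such as Dnajb1, are induced by the heat shock factor HSF1, and others, such as Dnajb9, Dnajb11 and Dnajc3, by the unfolded protein response of the endoplasmic reticulum.

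Values are log2 expression, and a difference is JG-98 minus control, with the moderated SE of limma and n = 3 arrays per group. As a gauge of background, 1082 probe sets of olfactory receptors, which macrophages are not expected to use, had a median level of 1.74, and 95% of them lay at or under 3.84. Of the 46 DnaJ genes, 39 lay above that level in at least 1 group. The other 7, Dnajb3, Dnajb7, Dnajb8, Dnajc5b, Dnajc5g, Dnajc6 and Dnajc22, cannot be told from background. The 8 measured macrophage markers all lay above it, with Csf1r at a mean of 11.1 on the JG-98 arrays and 11.2 on the control arrays. None of 9 neutrophil or 5 dendritic cell markers did so, against 1 of 4 B cell, 1 of 5 T cell, 1 of 3 erythroid and 3 of 6 stromal markers. JG-98 replicate 3 stood apart from the other arrays, with correlations of 0.992 to 0.993 to them and the highest array median (4.24, against 4.08 to 4.15). Its median deviation from the control mean was 0.41 for stromal, 0.21 for B cell, 0.20 for dendritic cell and 0.17 for T cell markers. It was 0.15 for erythroid and for neutrophil markers, and -0.11 for macrophage markers. Of the stromal markers, Dcn went the other way, at 2.07 on that array against 2.09 to 2.24 on the control arrays. Differences of single genes that turn on that array are given with and without it, and list medians with their range when 1 array was left out.

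No DnaJ gene passed the test. At an adjusted p under 0.05 in limma (Benjamini-Hochberg over all probe sets), 0 of 46 were called, against 10 of all probe sets (0.0397%), and the smallest adjusted p was 0.52. At an unadjusted p under 0.05 there were 3 members, against 8.32% of all probe sets. Dnaja3 and Dnajc1 had higher values after JG-98, where 3.84% of all probe sets did, and Dnajc28 had lower values, where 4.48% did. The 3 are 6.52% of the members, near the share of the whole array, and their number was 0 without control replicate 3, and 1 when the second array of either group was left out. The 2 groups of arrays did not overlap in 9 members (19.6%), against 15.6% of all probe sets. JG-98 was above in 5, Dnaja3, Dnaja4, Dnajc1, Dnajc2 and Dnajc21, where 7.12% of all probe sets did. It was below in 4, Dnajb1, Dnajc14, Dnajc27 and Dnajc28, where 8.44% did. Among genes above the olfactory receptor level the shares were 22% of 14068 probe sets and 9 of 39 members.

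Differences of the family were small and centred near 0. They ran from -0.30 for Dnajc5b to 0.26 for Dnaja3, with a median of -0.012, beside a median of 0.00080 for all probe sets. With 1 array left out, the members' median lay between -0.014 (without control replicate 3) and 0.016 (without JG-98 replicate 1). The median size of a difference, whatever its sign, was 0.086 for the members and 0.088 for all probe sets. Higher means after JG-98 were found in 21 members and lower means in 25, and 50.3% of all probe sets were higher. Differences beyond 0.2 in size were found in 5 members (10.9%), Dnaja3, Dnajb6, Dnajc5b, Dnajc19 and Dnajc28, against 15.6% of all probe sets.

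**Figure D1:**
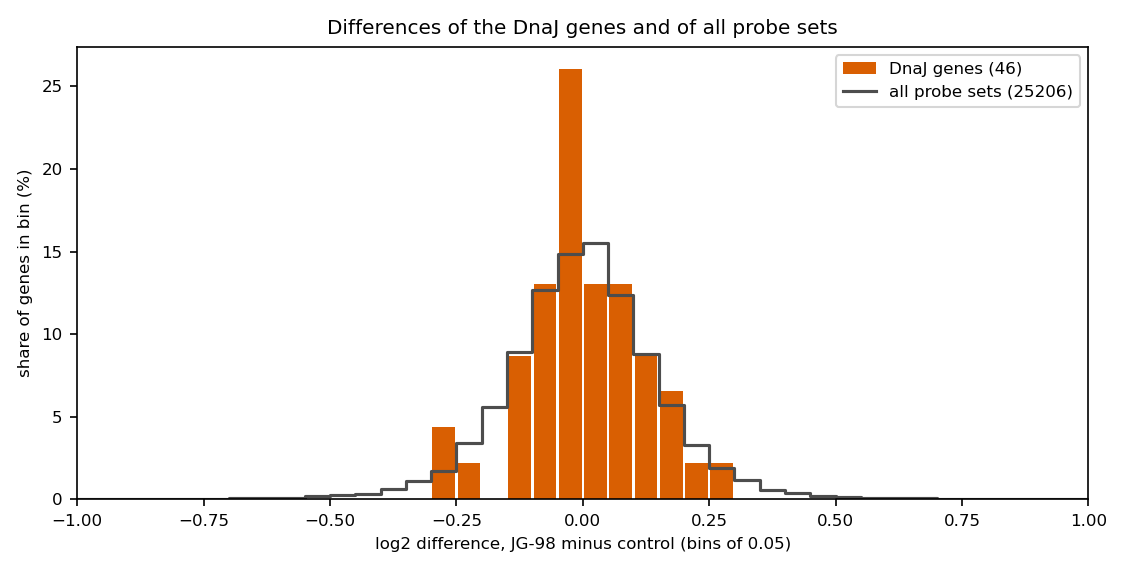
Share of genes (vertical axis, in percent) by log2 difference, JG-98 minus control (horizontal axis, bins of 0.05), for the 46 DnaJ genes as bars and all 25206 probe sets as a line. The members lie between -0.30 and 0.26, and both distributions centre near 0.

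Intervals bound the size of a change only against the spread between these arrays, which may be technical. The 95% interval of the difference, not adjusted for the number of genes, lay wholly within 2-fold either way for 46 of 46 members and within 1.5-fold for 43. The 3 exceptions were Dnajb6, Dnajc5b and Dnajc19. The interval reached 0.20 either side of the difference for the median member, and from 0.15 for Dnajc3 to 0.51 for Dnajb6. RMA, named in the submitters' processing notes, compresses differences of dim probe sets, so for the 7 members in the olfactory receptor range the interval says little about the transcript.

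**Figure D2:**
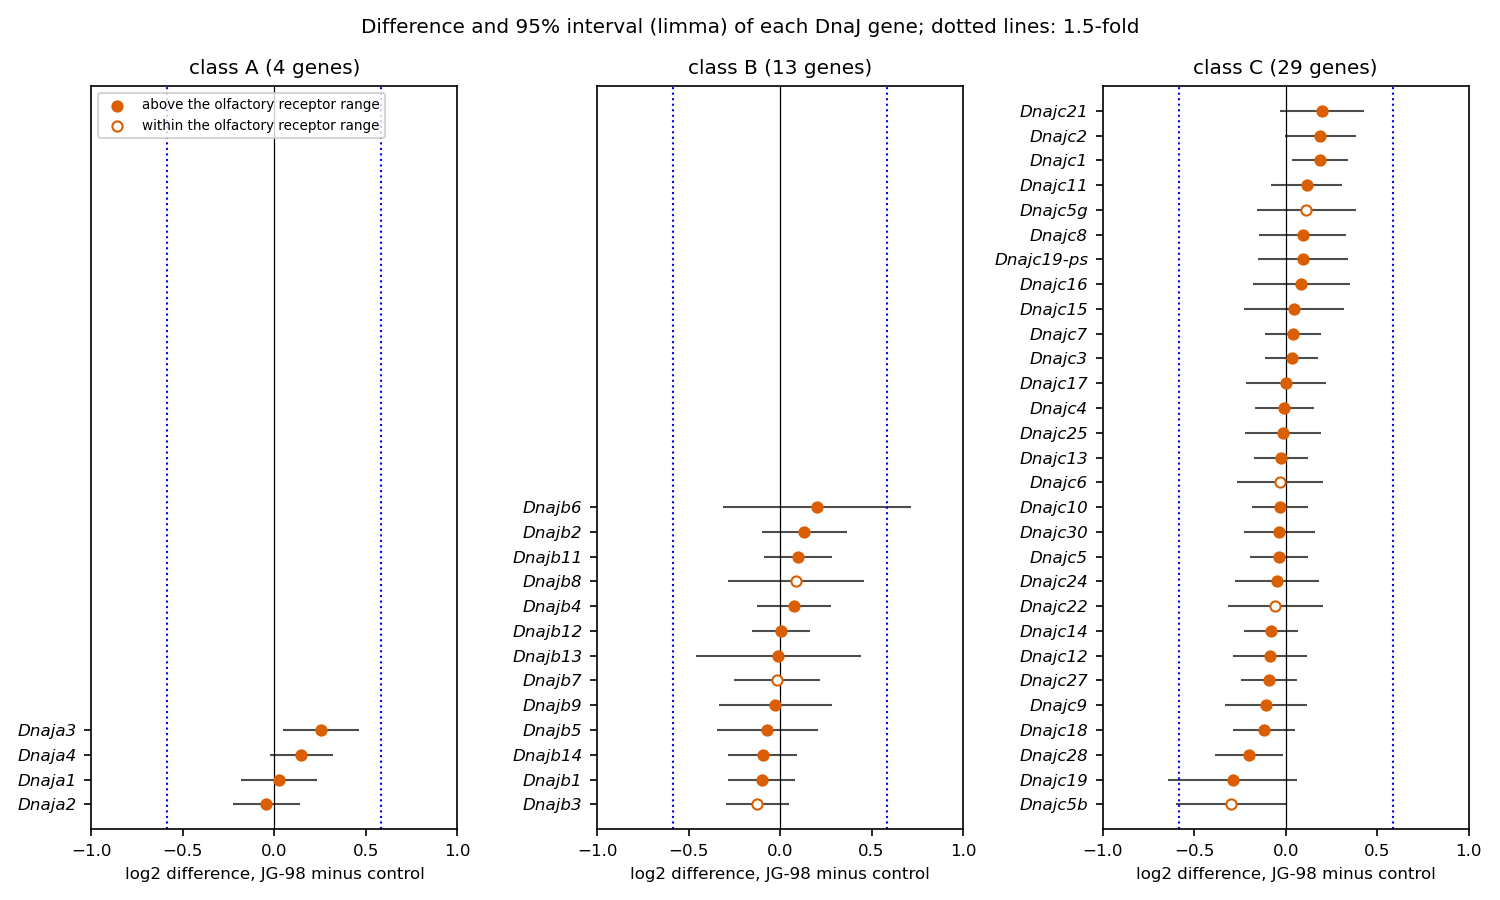
Log2 difference, JG-98 minus control (horizontal axis), of each of the 46 DnaJ genes with its 95% limma interval (bars), in a panel per class, from 3 arrays per group. Dotted lines mark 1.5-fold either way, which only the intervals of Dnajb6, Dnajc5b and Dnajc19 cross, and open points are the 7 genes in the olfactory receptor range.

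By class, the median difference was 0.086 over the 4 class A genes, -0.0088 over the 13 of class B and -0.027 over the 29 of class C. With 1 array left out, class A ran from 0.060 to 0.12. Class B crossed 0, from -0.039 (without control replicate 1) to 0.041 (without control replicate 2), and so did class C, from -0.024 to 0.011, with 0.0047 when JG-98 replicate 3 and 0.011 when control replicate 1 was left out. The JG-98 values lay above all control values in 2 of the 4 class A genes, 0 of the 13 of class B and 3 of the 29 of class C, and below them in 0, 1 and 3. Of all probe sets, 7.12% lay above and 8.44% below. Dnaja4, in class A, lay close to the olfactory receptor bound. A class A of 4 genes is too few to read a class effect from, and its members ranged from -0.05 for Dnaja2 to 0.26 for Dnaja3.

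The cytosolic members include the J proteins that work with Hspa8 and the inducible Hsp70s on newly made and misfolded proteins. Over 10 of them the median difference was 0.033, with 6 higher and 4 lower, and leaving out an array moved it to 0.051 (JG-98 replicate 2), 0.0037 (JG-98 replicate 3), 0.014 (control replicate 1) or 0.0036 (control replicate 3). Dnajb1, the classic heat shock-inducible Hsp40, lay at 7.25, 7.08 and 7.26 on the JG-98 arrays, against 7.32, 7.31 and 7.26 on the control arrays. All JG-98 values were below all control values, but the nearest ones differed in the third decimal, and the gap came mainly from replicate 2. The difference was -0.10 ± 0.076 (limma adjusted p = 0.79), with a 95% interval of -0.28 to 0.08, and it was -0.04 without JG-98 replicate 2. An increase of more than 1.06-fold lies outside that interval, which is from all arrays and not adjusted for the number of genes. The bound leans on JG-98 replicate 2, without which the SE was 0.0735 and no interval is given.

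Dnaja1, a general class A partner of Hspa8, lay at 5.03, 5.12 and 5.17 on the JG-98 arrays, against 5.12, 5.18 and 4.95 on the control arrays. The groups overlapped fully, and the difference was 0.02 ± 0.086 (limma adjusted p = 0.97). Its sign turned when the third array of either group was left out, to -0.0046 for the JG-98 array and -0.044 for the control array. Dnaja4, a close relative of Dnaja1, lay at 3.90, 4.03 and 3.90 on the JG-98 arrays, against 3.74, 3.81 and 3.84 on the control arrays. Its JG-98 values were all above its control values, at a level close to the olfactory receptor bound, and the difference was 0.15 ± 0.071 (limma adjusted p = 0.66).

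The other cytosolic members were Dnaja2, Dnajb2, Dnajb4, Dnajb5, Dnajb6, Dnajc7 and Dnajc12, all with overlapping groups and with differences from -0.09 for Dnajc12 to 0.20 for Dnajb6. In Dnajb5, JG-98 replicates 1 and 2 lay below all controls and JG-98 replicate 3 above them. Dnajb6, which holds back the aggregation of polyglutamine proteins, lay at 3.90, 4.31 and 4.01 on the JG-98 arrays, against 3.41, 4.18 and 4.02 on the control arrays. Control replicate 1 was lowest and JG-98 replicate 2 highest, which made it the member with the widest interval, -0.31 to 0.71. Its control mean of 3.87 was close to the olfactory receptor bound of 3.84, and control replicate 1 lay under that bound. Dnajc7, a TPR protein that passes clients between Hsp70 and Hsp90, differed by only 0.04 ± 0.064. RefSeq lists pseudogenes of Dnaja1 and Dnajb6 that match the symbol rule but were not analysed here, and whether probes are shared with them is unknown.

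Of 3 ribosome-linked members, 2 had JG-98 values that all lay above the control values, as did 7.12% of all probe sets. Among probe sets above the olfactory receptor range the share was 9.72%, and 3 genes are too few to read a list effect from. Dnajc2, which forms the ribosome-associated chaperone pair with the Hsp70 relative Hspa14, lay at 7.87, 7.98 and 7.74 on the JG-98 arrays, against 7.66, 7.66 and 7.70 on the control arrays. The lowest JG-98 value, that of replicate 3, exceeded the highest control value by a small margin. The difference was 0.19 ± 0.081 (limma adjusted p = 0.61), and it was 0.25 without JG-98 replicate 3 (limma adjusted p = 0.36). Its partner Hspa14 differed by 0.01 ± 0.062.

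Dnajc21, needed for maturation of the large ribosomal subunit, lay at 6.78, 6.69 and 6.62 on the JG-98 arrays, against 6.60, 6.32 and 6.57 on the control arrays. Control replicate 2 was well below the other controls, and without it the difference was 0.11 in place of 0.20 ± 0.096 (limma adjusted p = 0.66 with all arrays). Dnajc24, which acts in the synthesis of diphthamide on elongation factor 2, differed by -0.05 ± 0.096, with groups that overlapped. The nuclear members Dnajc8 and Dnajc17, both linked to splicing, and Dnajc9, a histone chaperone, differed by 0.09 ± 0.099, 0.00 ± 0.092 and -0.11 ± 0.093, and none separated the groups.

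Several endoplasmic reticulum members, such as Dnajb9, Dnajb11 and Dnajc3, recruit Hspa5, the Hsp70 of that compartment. They bring it to nascent chains, to folding intermediates and to proteins bound for degradation. The list was drawn by compartment, and not all its members are taken to work with Hspa5. Over its 10 members the median difference was -0.011, with 5 higher and 5 lower. With 1 array left out it ran from -0.019 (without JG-98 replicate 1) to 0.0049 (without control replicate 2). Dnajc1, a membrane J protein that places Hspa5 at the ribosome, lay at 7.30, 7.37 and 7.31 on the JG-98 arrays, against 7.09, 7.19 and 7.15 on the control arrays. The 3 JG-98 values were close together and all above the controls. The difference was 0.19 ± 0.064 (limma adjusted p = 0.52), and leaving out any 1 array kept it between 0.16 and 0.21.

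Dnajb9, Dnajb11 and Dnajc3 are textbook targets of the unfolded protein response. Dnajb9, which delivers misfolded proteins to degradation and holds the sensor IRE1 inactive, lay at 7.65, 7.55 and 7.18 on the JG-98 arrays, against 7.40, 7.54 and 7.52 on the control arrays. JG-98 replicates 1 and 2 were the 2 highest of the 6 values and JG-98 replicate 3 was the lowest. The difference was -0.03 ± 0.13 (limma adjusted p = 0.98) with all arrays and 0.11 without JG-98 replicate 3 (limma adjusted p = 0.63).

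Dnajb11, the abundant soluble J protein of the lumen, lay at 8.26, 8.31 and 8.31 on the JG-98 arrays, against 8.30, 8.08 and 8.21 on the control arrays. One control, replicate 1, lay within the range of the JG-98 arrays, and the difference was 0.10 ± 0.078 (limma adjusted p = 0.80). Dnajc3, also called p58IPK, lay at 8.76, 8.69 and 8.72 on the JG-98 arrays, against 8.70, 8.67 and 8.71 on the control arrays. The 6 values spanned less than 0.1, and the interval of its difference, -0.11 to 0.18, was the narrowest of the family. Dnajc10, which adds disulfide reductase activity to a J domain, lay at 8.86, 8.78 and 8.83 on the JG-98 arrays, against 8.89, 8.85 and 8.83 on the control arrays, with groups that overlapped and a difference of -0.03 ± 0.063.

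To show where stress elements stand in the family, the promoters of the 37 members in the RefSeq promoter table (GRCm38.p6, 250 bases before to 50 after the start) were searched on both strands. Only exact matches within that window were counted, so a gene without one may still carry a variant element or one elsewhere. Dnajb1, Dnajb9 and Dnajb11 were searched and had no whole element. The 37 genes have 50 annotated promoters there, and shares are given over the 27025 genes of the table, counting a gene once if any of its promoters matched. The ER stress element, CCAAT and CCACG with 9 bases between, was found in 1 member gene, Dnajc3, and in 0.137% of all genes. A heat shock element of 3 units, GAA and TTC in turn with 2 bases between, was found in 1, Dnajb6, and in 0.662% of all genes. The UPR element TGACGTGG was found in 1, Dnajc25, and in 0.714% of all. The amino acid response element TGATGCAAT was found in 0 members and 0.222% of all. The letters CCACG alone, which lie inside the ER stress element and the reverse strand of the UPR element, were found in 24 of the 37 member genes (64.9%) and in 35.5% of all genes, with base composition not matched. The promoters of the 3 genes with a whole element are printed, 1 for each gene, because they carry the letters that stress factors are known to read, with the match in capitals and 5′ to 3′ along the gene.
Dnajc3 (chr14:118937682-118937981, plus strand): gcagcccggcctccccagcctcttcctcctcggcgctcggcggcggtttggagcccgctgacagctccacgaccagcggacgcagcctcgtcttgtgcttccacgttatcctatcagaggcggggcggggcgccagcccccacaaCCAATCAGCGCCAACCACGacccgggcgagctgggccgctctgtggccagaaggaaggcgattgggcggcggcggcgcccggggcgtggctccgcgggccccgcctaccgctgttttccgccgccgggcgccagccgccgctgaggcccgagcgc
Dnajb6 (chr5:29735648-29735947, plus strand): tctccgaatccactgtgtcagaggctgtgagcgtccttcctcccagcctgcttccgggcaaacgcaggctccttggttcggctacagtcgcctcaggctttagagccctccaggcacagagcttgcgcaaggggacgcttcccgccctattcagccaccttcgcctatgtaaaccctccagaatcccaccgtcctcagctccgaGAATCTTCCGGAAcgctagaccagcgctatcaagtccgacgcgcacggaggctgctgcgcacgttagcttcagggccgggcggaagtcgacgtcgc
Dnajc25 (chr4:59002943-59003242, plus strand): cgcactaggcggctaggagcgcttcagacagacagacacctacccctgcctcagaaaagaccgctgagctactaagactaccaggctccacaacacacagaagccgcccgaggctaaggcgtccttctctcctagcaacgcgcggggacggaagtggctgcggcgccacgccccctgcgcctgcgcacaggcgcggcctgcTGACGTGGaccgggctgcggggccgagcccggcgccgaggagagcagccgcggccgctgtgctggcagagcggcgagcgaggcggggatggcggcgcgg
These matches are descriptions of letters, and the differences of the 3 genes were 0.03 ± 0.061, 0.20 ± 0.21 and -0.01 ± 0.086, none past the test. In the Dnajc3 promoter the element lies from base -105 to base -87, in the printed one of Dnajb6 from -46 to -34 and in that of Dnajc25 from -49 to -42, counted from the start. Dnajb6 has 2 annotated starts, and the window of the other one, which overlaps the printed window, is not shown. It holds the same heat shock element, which lies from -127 to -115 when counted from that other start.

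The membrane members of this compartment had mixed signs. Dnajc14, known in human cells for its part in the export of receptors, lay at 7.85, 7.79 and 7.82 on the JG-98 arrays, against 7.86, 7.92 and 7.92 on the control arrays. Its JG-98 values were all below its controls, by a difference of -0.08 ± 0.062 (limma adjusted p = 0.79). Dnajb12 and Dnajb14, which assist the degradation of membrane proteins, differed by 0.00 ± 0.066 and -0.09 ± 0.079. Dnajc16 differed by 0.09 ± 0.11 and Dnajc18 by -0.12 ± 0.071, and all 4 had overlapping groups. In Dnajb14 and Dnajc18 the groups overlapped only through JG-98 replicate 3, and JG-98 replicates 1 and 2 lay below all controls. Without JG-98 replicate 3, Dnajc18 had an unadjusted p under 0.05 in limma, and no member was called.

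**Figure D3:**
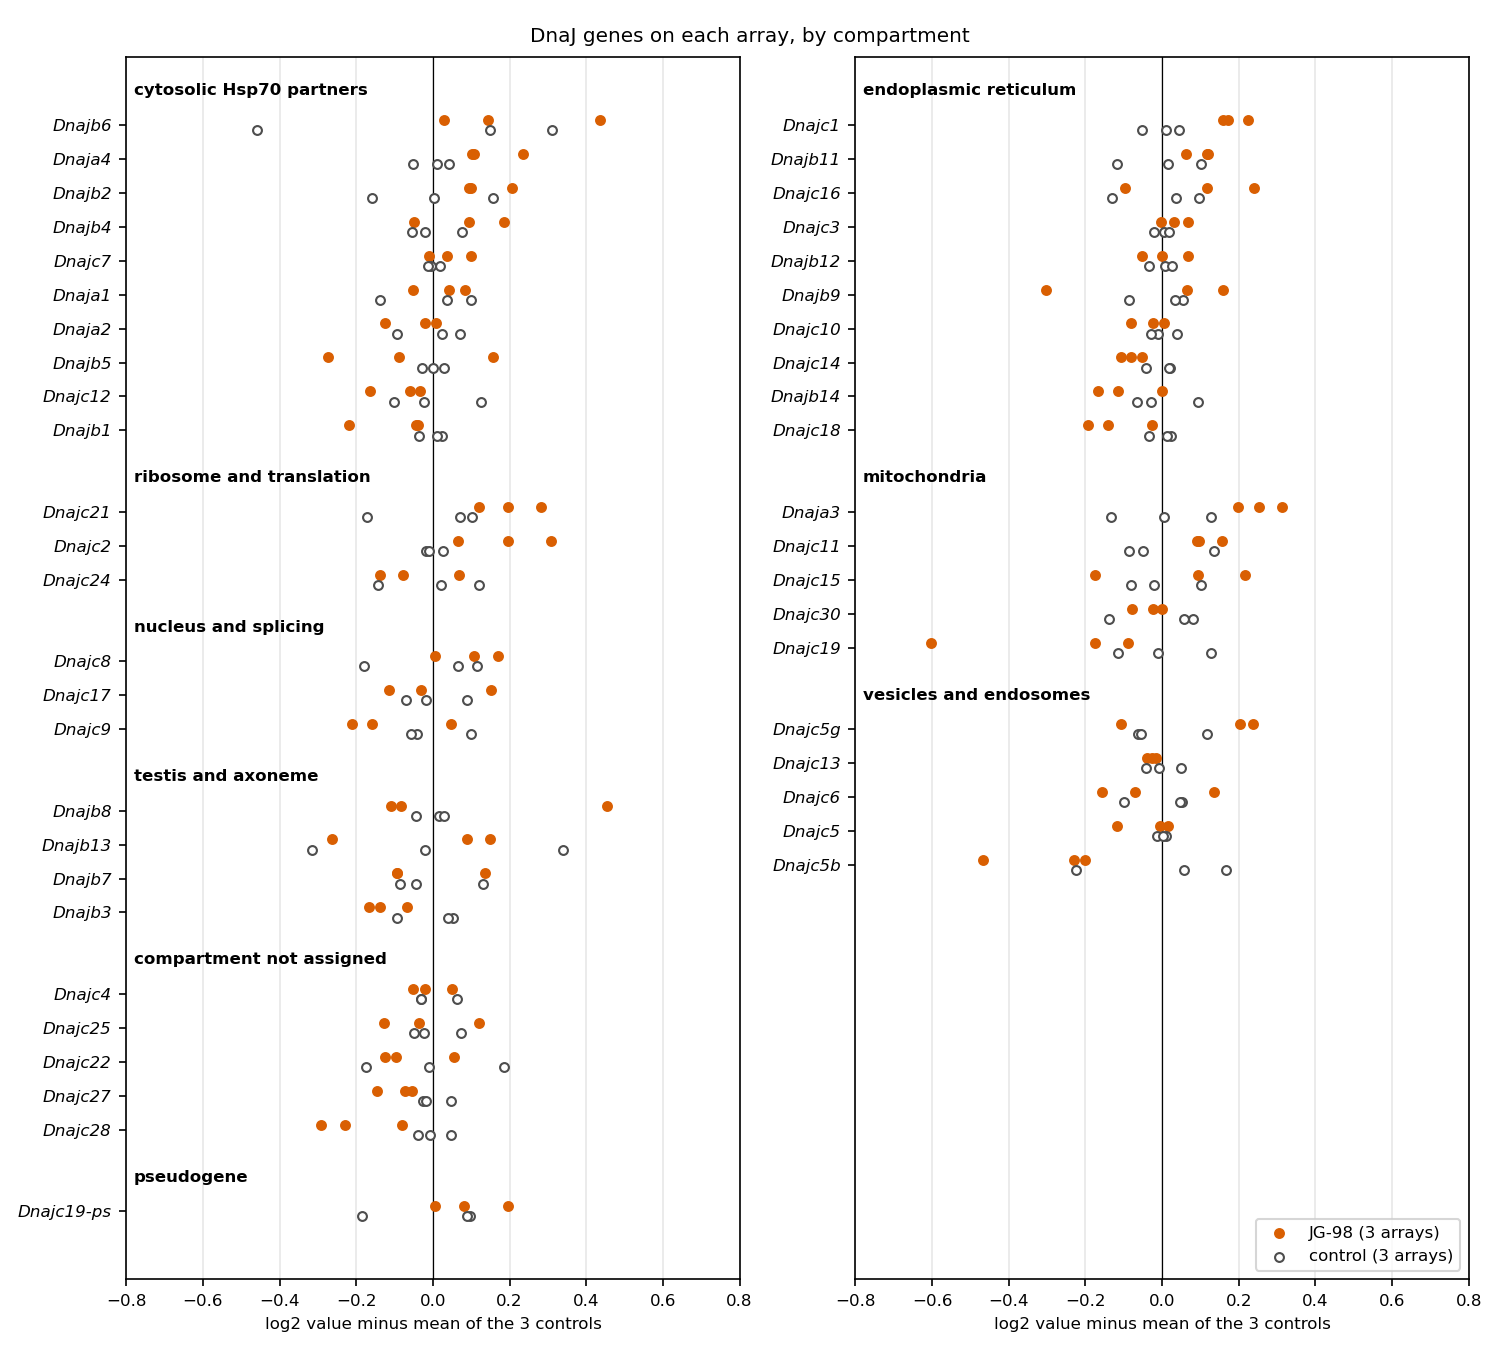
Log2 value of each DnaJ gene minus the mean of the 3 controls (horizontal axis), on each JG-98 array (filled points) and each control array (open points), grouped by compartment. The groups part in 9 of 46 genes (19.6%), against 15.6% of all probe sets, with JG-98 above in 5 and below in 4. The far low point in the mitochondrial group is Dnajc19 on JG-98 replicate 3.

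Some mitochondrial members, such as Dnaja3 and Dnajc19, work with Hspa9, the Hsp70 of the matrix, in protein import and folding. This list too was drawn by compartment, and not all its members are taken to work with Hspa9. Its genes held both ends of the family's range above background, and the median over 5 genes was 0.046. That median turned to -0.013 without JG-98 replicate 2, lay at 0.021 when JG-98 replicate 1 and at 0.0058 when control replicate 2 was left out, and stood higher, at 0.12 when JG-98 replicate 3 and at 0.096 when control replicate 1 was. Dnaja3, also known as Tid1, the matrix J protein of class A, lay at 7.35, 7.41 and 7.30 on the JG-98 arrays, against 7.22, 6.96 and 7.10 on the control arrays. Every JG-98 value exceeded every control value, with control replicate 1 the nearest. The difference of 0.26 ± 0.087, which is 1.19-fold, had the smallest adjusted p of the family (0.52 in limma), and it stayed between 0.19 and 0.32 when any 1 array was left out. Hspa9 itself lay at 10.20, 10.18 and 10.15 on the JG-98 arrays, against 9.80, 9.70 and 9.77 on the control arrays, with a difference of 0.42 ± 0.063 that did not pass either (limma adjusted p = 0.19).

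Dnajc19, the J protein of the import motor at the inner membrane, lay at 6.64, 6.55 and 6.13 on the JG-98 arrays, against 6.85, 6.61 and 6.72 on the control arrays. JG-98 replicate 3 was far below the other 5 arrays, and JG-98 replicate 1 lay above the lowest control. The difference was -0.29 ± 0.15 (limma adjusted p = 0.68) with all arrays, and -0.13 without JG-98 replicate 3 (limma adjusted p = 0.63). Its pseudogene Dnajc19-ps, whose transcripts may share probes with it, lay at 7.07, 7.00 and 7.19 on the JG-98 arrays, against 7.09, 7.08 and 6.81 on the control arrays. There JG-98 replicate 3 was the highest of the 6 arrays, so the pair went opposite ways on that array.

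Dnajc15, a relative of Dnajc19 that restrains the respiratory chain, lay at 6.82, 6.95 and 6.55 on the JG-98 arrays, against 6.83, 6.65 and 6.71 on the control arrays. JG-98 replicate 2 was the highest and JG-98 replicate 3 the lowest of the 6 arrays. The difference was 0.05 ± 0.12 with all arrays, 0.16 once JG-98 replicate 3 was left out and -0.040 once replicate 2 was. Dnajc11, which takes part in the shaping of cristae, and Dnajc30, which is linked to the ATP synthase, differed by 0.11 ± 0.081 and -0.03 ± 0.082, with overlapping groups.

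Of the vesicle and endosome members, only Dnajc5 and Dnajc13 lay above the olfactory receptor range. Dnajc5, the cysteine string protein of secretory vesicles, differed by -0.04 ± 0.067, and Dnajc13, which acts in endosomal sorting, by -0.03 ± 0.062. Dnajc6, the auxilin that uncoats clathrin vesicles in neurons, Dnajc5b and Dnajc5g were in the background range. Of these Dnajc5b had the lowest difference of the family, -0.30 ± 0.13, with 1 control, replicate 1, within the JG-98 values (limma adjusted p = 0.61).

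The testis and axoneme members were dim, and Dnajb3, Dnajb7 and Dnajb8 lay in the background range in both groups. Dnajb13, a protein of the sperm and cilium axoneme, had means of 3.84 after JG-98 and 3.85 in controls, at the edge of that range, and a difference of -0.01 ± 0.19.

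No compartment was assigned to 5 members, Dnajc4, Dnajc22, Dnajc25, Dnajc27 and Dnajc28, and their differences were all below 0, with a median of -0.056, which was -0.10 when JG-98 replicate 3 or control replicate 1 was left out, -0.037 without JG-98 replicate 2, and -0.026 when control replicate 3 was left out. Dnajc28 lay at 4.42, 4.64 and 4.49 on the JG-98 arrays, against 4.76, 4.71 and 4.68 on the control arrays. Its JG-98 values were all below its controls, with replicate 2 the nearest, and the difference of -0.20 ± 0.078 had an adjusted p of 0.57 in limma. Dnajc27, a Rab-like GTPase that carries a J domain, lay at 5.12, 5.22 and 5.20 on the JG-98 arrays, against 5.24, 5.25 and 5.32 on the control arrays. The groups parted by a small margin, at a difference of -0.09 ± 0.065 (limma adjusted p = 0.77).

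**Figure D4:**
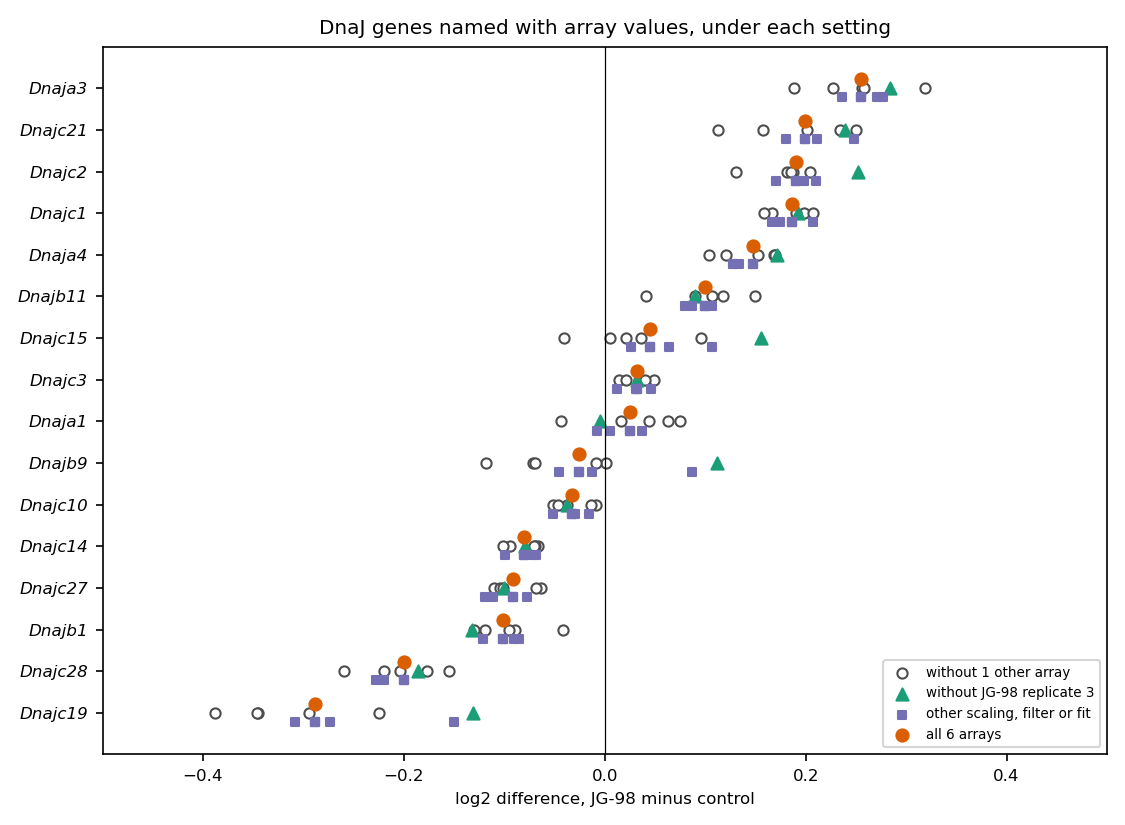
Log2 difference, JG-98 minus control (horizontal axis), of 16 of the DnaJ genes described array by array (Dnajb6 and Dnajc19-ps are not drawn), with all 6 arrays (large filled circles), without 1 array (open circles, and triangles for JG-98 replicate 3) and under 8 other scalings, filters or fits (squares). Only Dnaja1, Dnajb9 and Dnajc15 cross 0. All other genes drawn keep their sign in every setting, also those with differences near 0, such as Dnajc3 (0.03) and Dnajc10 (-0.03).

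Genes that work beside the J proteins were set against them by counts from the same fit. Of 3 measured J-domain genes that carry other symbols, Sec63, the J protein of the endoplasmic reticulum translocon, lay at 8.33, 8.30 and 8.29 on the JG-98 arrays, against 8.04, 8.08 and 8.13 on the control arrays. Its values parted the groups, at a difference of 0.22 ± 0.062 (limma adjusted p = 0.43), while Gak differed by -0.00 ± 0.06 and Hscb by 0.01 ± 0.16. In Hscb, JG-98 replicates 1 and 2 lay above all controls and JG-98 replicate 3 below them. The median of the 3 genes was 0.0054 with all arrays and 0.17 without JG-98 replicate 3. Of 23 folding, degradation and sensor genes of the endoplasmic reticulum, 0 were called, 20 had higher means after JG-98 and 10 parted the groups with JG-98 above, with a median of 0.095. Of all probe sets above the olfactory receptor range, where all 23 lie, 49% had higher means and 9.72% parted the groups with JG-98 above. The smallest p-values there were those of Hyou1 at 0.38 ± 0.068, the sensor gene Ern1 at 0.33 ± 0.06 and Pdia6 at 0.19 ± 0.063. Among the 10 J proteins of the same compartment, 5 had higher means, and the difference between the lists was not tested. Because the lists were chosen with earlier results of these data known, the counts only describe them.

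Of 9 measured genes of the mitochondrial import motor, 0 were called and 6 had higher means, with a median of 0.11, which was lower with an array left out, down to 0.038 with JG-98 replicate 2 and 0.047 with control replicate 3 removed. Hspa9 led them, followed by the channel genes Timm17a at 0.27 ± 0.072 and Timm17b at -0.16 ± 0.068. The 15 Hsp70 family genes had a median of 0.061, running from 0.0037 (without JG-98 replicate 2) to 0.084 (without JG-98 replicate 3), and 0 calls, with the smallest p-values at Hspa9, Hyou1 and Hspa5, the last at 0.15 ± 0.065. The 10 nucleotide exchange factors, which reopen Hsp70 after the J protein has closed it, had a median of 0.026, running from -0.012 (without control replicate 2) to 0.046 (without control replicate 3), and 0 calls, and their smallest p-values were those of Bag2 at 0.15 ± 0.084, Grpel2 at 0.12 ± 0.094 and Grpel1 at 0.11 ± 0.11. In these 5 lists together with the DnaJ genes, limma called no gene at the adjusted threshold. The lists share genes, since Hspa5, Hspa9, Hyou1, Sil1, Grpel1 and Grpel2 each stand in more than 1.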

How the data were processed

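For 3 JG-98 and 3 control samples the authors deposited a log2 value for each probe set. The submitters' processing notes name RMA, affy and R 2.15.1, with no role for any of them. The genome build of the arrays' annotation was not used here. Probe sets carry Entrez numbers, and 23185 of 25206 were named through the platform annotation, updated in a RefSeq table of assembly GRCm38.p6, which also gave the promoters. All 46 members matched. The members and gene lists were chosen with earlier results of these data known, and compartments were assigned from general knowledge.

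The test was the two-sided moderated one of limma 3.58.1 under R 4.3.3 (lmFit, then eBayes, with 4 residual and 2.59 prior degrees of freedom), with Benjamini-Hochberg adjustment over all probe sets and a threshold of 0.05. The fit was tested on simulated data. Lists are described by counts and medians. Array values are given for members with an unadjusted p under 0.05, for those whose groups did not overlap, and for 10 always listed (Dnaja1, Dnaja3, Dnajb1, Dnajb9, Dnajb11, Dnajc2, Dnajc3, Dnajc10, Dnajc15 and Dnajc19). Others shown array by array are Dnajb6, Dnajc19-ps, Hspa9 and Sec63, chosen after their values were seen. Of related lists, the 3 smallest p-values are named. The other settings were median centring, quantile normalization, leaving out the dimmest 25% or 50% of probe sets, eBayes with an intensity trend or a robust prior, array weights (statmod 1.5.0), the replicate number as a block and leaving out each array. The number of arrays limits the precision.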

Additional observations from a re-analysis of the deposited data

How the results depend on the processing

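No DnaJ gene was called in limma under any of the 14 other settings, and the smallest adjusted p of a member ranged from 0.166 to 0.798. The count over all probe sets moved from 10 to 90 without the dimmest 50% of probe sets, 254 with an intensity trend and 25 with array weights, and it was 0 to 5 when 1 array was left out. Members at an unadjusted p under 0.05 numbered 3 with all arrays, 1 after median centring, 6 after quantile normalization, 7 with array weights and 0 to 4 without 1 array, the 0 being without control replicate 3. After median centring the median was -0.030 for endoplasmic reticulum members, 0.0069 for exchange factors and 0.076 for the endoplasmic reticulum folding genes. Without the dimmest 50% of probe sets it was 0.025 for class A and -0.045 for cytosolic members, since fewer genes were measured. With array weights it was -0.096 for testis and axoneme members, -0.11 for unassigned members, 0.14 for J-domain genes under other symbols and 0.0051 for exchange factors, and the differences of Dnaja1 and Dnajb9 turned to -0.0076 and 0.087. The cause of these shifts was not tested.

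Leaving out 1 array gave medians of -0.014 to 0.016 for all members, -0.039 to 0.041 for class B, -0.024 to 0.011 for class C, -0.10 to -0.026 for unassigned members, 0.11 to 0.24 for ribosome-linked members, -0.091 to 0.074 for testis and axoneme members, -0.013 to 0.12 for mitochondrial members, -0.073 to 0.060 for nuclear members, 0.0036 to 0.051 for cytosolic members, -0.019 to 0.0049 for endoplasmic reticulum members, 0.060 to 0.12 for class A and -0.048 to -0.0074 for vesicle members. For related lists the medians were 0.061 to 0.11 (endoplasmic reticulum folding), 0.0037 to 0.084 (Hsp70 family), -0.023 to 0.17 (J-domain genes under other symbols), 0.038 to 0.098 (import motor) and -0.012 to 0.046 (exchange factors). The differences of Dnaja1, Dnajb9 and Dnajc15 ran from -0.044 to 0.075, -0.12 to 0.11 and -0.040 to 0.16, crossing 0.

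The labels give both groups the numbers 1 to 3 without saying what they stand for. Deviations from the group means correlated at 0.095, -0.13 and 0.10 between same-numbered arrays, and 1 of 3 JG-98 arrays correlated best with its own number, so the numbers were not taken to pair the samples. A replicate block in the fit gave 0 called probe sets and 0 called members, against 10 and 0 without it, and 2 members had an unadjusted p under 0.05.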
